A study of Mus musculus with 4 samples.

Results

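MyD88 is the adaptor that carries the signal of most Toll-like receptors, and the 10 genes described here encode that adaptor, the kinases and ubiquitin ligases recruited to it, and 3 proteins that tune its output: Myd88, Irak4, Irak1, Irak2, Irak3, Traf6, Traf3, Slc15a4, Btk and Pik3ap1. They were chosen by symbol, and each matched 1 row of the 27179 genes in the count table. The RNA came from plasmacytoid dendritic cells (pDCs), immune cells that sense viral nucleic acids in endosomes and are known for type I interferon. The cells were grown from C57BL/6 bone marrow for 8 days in Flt3 ligand, a dendritic cell growth factor, and all of them received imiquimod, a small-molecule ligand of TLR7, at 1 µg/ml for 24 h. A sort on SiglecH and CD11b was followed by a split on BFP, a blue fluorescent reporter of the chemokine gene Cxcl10, giving 2 BFP-positive and 2 BFP-negative libraries. By the labels both groups share strain, culture and treatment and differ in whether the reporter was on. No unstimulated library was analysed here, so the values compare stimulated cells with each other and say nothing of induction by imiquimod. The direction of the CD11b gate, the position of the BFP gate and the age of the mice are not given in the sources used here. A population label calls the BFP-negative cells positive for CXCL10, against the design text, so samples were grouped by the BFP sign in their titles.

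In the textbook order of the pathway, TLR7 binds its ligand in the endosome and recruits MyD88, which assembles the kinase IRAK4 and then IRAK1 and IRAK2. IRAK3, also called IRAK-M, joins the same complex and is known as a brake on it. The ligase TRAF6 passes the signal to the kinases that free NF-κB, and TRAF3 serves the branch to interferon while holding back the non-canonical NF-κB kinase NIK. SLC15A4 is an endolysosomal transporter that pDCs need for TLR7 and TLR9 responses, and BTK and the PI3K adaptor BCAP (gene Pik3ap1) are best known from B-cell receptor signalling and also act downstream of Toll-like receptors.

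The libraries held 11868254 to 12570117 counts, with 13219 to 13533 genes detected. The label check, Cxcl10, had 3 and 19 counts in the BFP-negative and 149 and 154 in the BFP-positive libraries. The pDC markers Siglech and Bst2 were at 611 to 820.3 and 1567 to 1867 CPM (counts adjusted for library size, TMM-scaled) over the 4 libraries. Of the 10 pDC markers, 2 rose (Siglech and Runx2), 4 fell (Ccr9, Ly6d, Cox6a2 and Klk1) and 4 did not pass. Their summed level was 21420 and 25478 CPM in BFP-negative and 17571 and 16668 CPM in BFP-positive libraries. Most of this sum was Ly6d alone, at 17289 and 20947 against 13612 and 12571 CPM, so the sum mainly follows that gene. Over all genes tested, 7.60% were called higher and 3.51% lower. The part of the pDC markers in the differences below was not tested. Monocyte and macrophage markers were also present, and their values are given beside Irak3. In such bulk samples, fewer cells of a type and less RNA per cell cannot be told apart. Nothing in the labels says that the replicates came from separate animals, so p-values measure only the spread between these libraries, which may be technical.

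Promoter sequences are shown for Myd88 and Slc15a4, the abundant genes of the 10 that rose together in BFP-positive cells. They are the 250 bases before to 50 after the transcription start in RefSeq's GRCm38.p6 annotation, read 5′ to 3′ along each gene, both of which lie on the minus strand. Those of Myd88 (chr9:119339969-119340268) carry in capitals the only match to GAAA, any 2 bases and GAAA again, the core of the element (ISRE) bound by interferon-activated factors. Those of Slc15a4 (chr5:127617343-127617642) carry in capitals their matches to GGG, any 5 bases and CC, the outline of an NF-κB site, on either strand. This window lies inside the annotated span of Slc15a4, which reaches to 127633292, so its start is not the outermost end of the gene.
Myd88: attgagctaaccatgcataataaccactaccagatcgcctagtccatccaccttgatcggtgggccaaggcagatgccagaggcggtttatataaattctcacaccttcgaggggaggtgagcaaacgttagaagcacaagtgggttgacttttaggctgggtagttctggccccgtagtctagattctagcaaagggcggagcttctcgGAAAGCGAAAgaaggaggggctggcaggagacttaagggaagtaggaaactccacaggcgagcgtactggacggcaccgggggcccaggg
Slc15a4: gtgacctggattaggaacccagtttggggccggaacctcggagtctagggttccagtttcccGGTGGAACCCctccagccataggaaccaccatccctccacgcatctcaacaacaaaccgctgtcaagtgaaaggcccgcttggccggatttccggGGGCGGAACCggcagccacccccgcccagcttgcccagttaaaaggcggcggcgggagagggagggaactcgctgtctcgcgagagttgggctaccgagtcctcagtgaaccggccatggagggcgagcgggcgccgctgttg

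The 10 genes had 12 promoters in all in the RefSeq table. The ISRE-type match of Myd88 lies 40 to 31 bases before the start, and none of the other promoters of the 10 genes held these letters. Over all 32851 promoters, 3.44% held them on either strand. The looser NF-κB outline was found in promoters of 8 of the 10 genes, but 50.8% of all promoters held it. The motif GAGGAA, the core of sites for PU.1 and related ETS factors, was found for Irak3, Traf3, Traf6, Btk and Pik3ap1, and in 28.3% of all promoters. The AP-1 outline TGANTCA was found in 7.81% of all promoters and in none of the 12. Among tested genes with a given match, the share called higher in BFP-positive cells was 15.3% for the ISRE type (54 of 353) and 12.9% for the AP-1 type (69 of 533). It was 9.24% for GAGGAA and 7.92% for the NF-κB outline. Over all 11706 genes tested it was 7.60%, but only 9005 of these had a promoter here, so the sets are not alike. These shares are a description with no test. A match is a run of letters and not a shown binding site, and the outlines can overlap one another.

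BFP-positive cells had more Myd88 and Slc15a4 RNA, roughly doubled in the case of the adaptor, and a trace of Irak3 that the BFP-negative libraries lacked. The other 7 genes had fitted differences within 1.39-fold in either direction and did not pass the test. In edgeR's quasi-likelihood test over all genes (adjusted p threshold 0.05), 3 of the 10 rose and 7 did not pass. Over all 11706 genes tested, 7.60% were called higher and 3.51% lower. At an unadjusted p under 0.05 the 10 genes gave 4 differences. Their median log2 fold change was 0.41, whatever upward size is taken for Irak3, beside -0.02 over all genes tested. Irak3 could only count on the upper side of this median, and without it the middle value was 0.37, that of Pik3ap1. In 6 of the 10 the BFP-positive libraries both lay above the BFP-negative ones and in 1, Irak1, both lay below, where 27.1% of all genes tested were apart upward and 27.1% downward. All 10 passed the filter on low counts, Irak3 only through the BFP-positive libraries. Its call, and its place among the 6, could therefore only point upward. The calls among the other genes were Myd88 and Slc15a4.

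**Figure D1:**
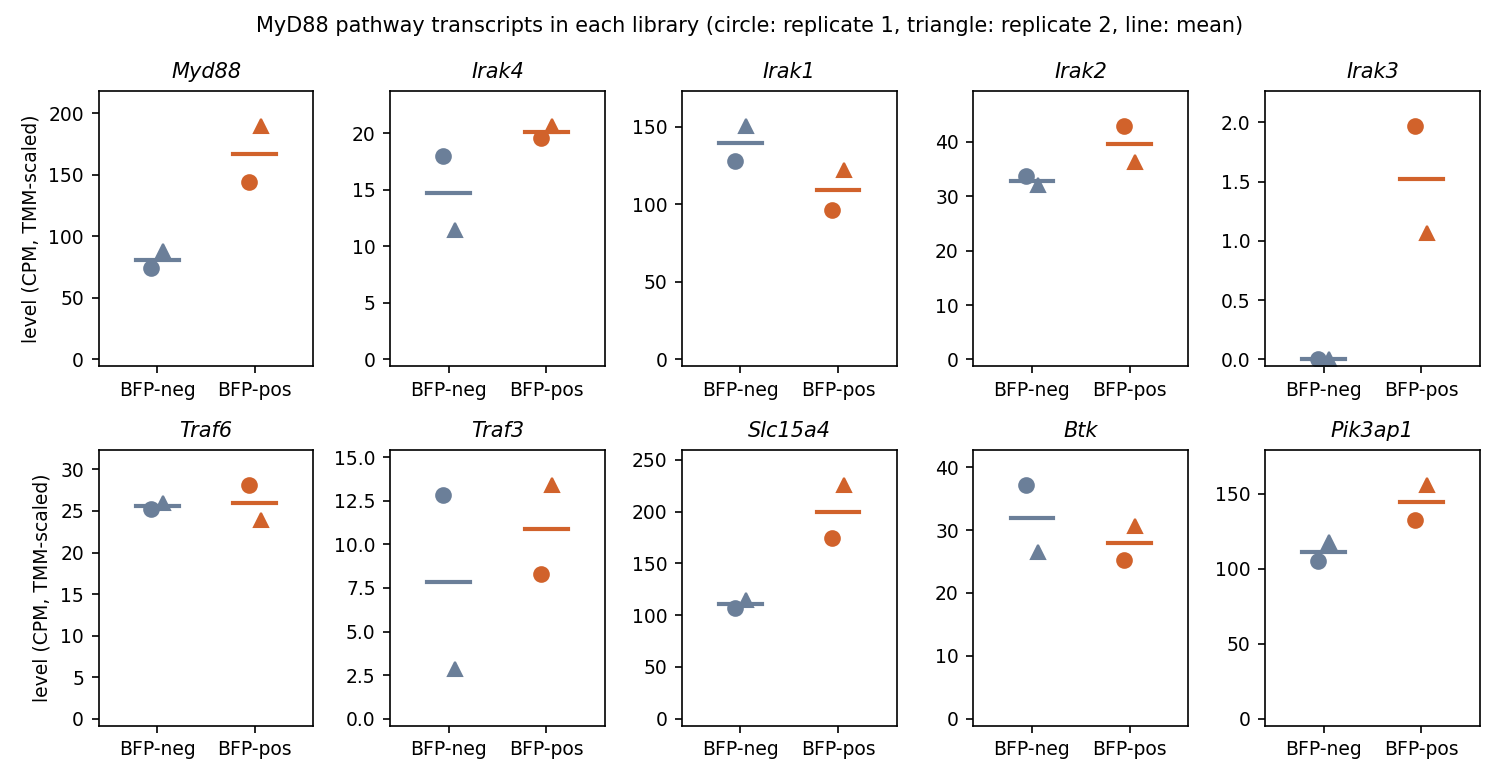
Level of each transcript (vertical axes, TMM-scaled CPM, each starting near 0) in the 2 BFP-negative and 2 BFP-positive libraries, with circles for replicate 1, triangles for replicate 2 and lines for the group means. Myd88 and Slc15a4 lie apart between the groups, Irak3 is at 0 in both BFP-negative libraries, and Traf3, Traf6 and Btk overlap.

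Myd88 (Entrez gene 17874, chromosome 9, 119335934 to 119340018 on GRCm38, minus strand, whole gene with introns) was at 74.1 and 88.1 CPM in BFP-negative replicates 1 and 2. It was at 144 and 189.8 CPM in BFP-positive replicates 1 and 2. The groups did not overlap, and the lower BFP-positive library was still well above the higher BFP-negative one. The means were 81.1 ± 9.90 and 167 ± 32.3 CPM (SD, n = 2), a 2.06-fold rise. In edgeR's test the log2 fold change was 1.04, SE 0.18, adjusted p = 0.00462, with a 95% interval of 1.56-fold to 2.71-fold; the intervals here are per gene and not adjusted. The rise passed under each of the 11 alternatives tried, from 0.83 to 1.23 on the log2 scale, with the smallest value without BFP-positive replicate 2. In the GENCODE annotation 290 exon bases of Myd88, 11.3% of its exon length, lie opposite exons of Acaa1a, a peroxisomal enzyme gene. Because the libraries do not mark strand, reads there cannot be told apart. Acaa1a was at 103 and 120.03 CPM in BFP-negative and at 152 CPM in each BFP-positive library, and did not pass (log2 fold change 0.44, adjusted p = 0.0877 in edgeR's test).

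IRAK4, the first kinase of the complex and the one on which the others depend, was encoded by a transcript at 18.0 and 11.4 CPM in BFP-negative and 19.6 and 20.7 CPM in BFP-positive cells. Irak4 (Entrez gene 266632, chromosome 15, 94543613 to 94568317) was thus higher in both BFP-positive libraries, by a margin smaller than the gap between the BFP-negative pair. Its log2 fold change of 0.45, SE 0.31 did not pass (adjusted p = 0.430 in edgeR's test, 95% interval 0.844-fold to 2.21-fold). Irak1 (Entrez gene 16179, chromosome X, 74013914 to 74023921), the kinase that is modified and then hands the signal to TRAF6, ran the other way. It was at 128 and 151 CPM in BFP-negative and 96.5 and 122 CPM in BFP-positive cells, both lower. The difference of -0.35 on the log2 scale, SE 0.17, did not pass (adjusted p = 0.245 in edgeR's test, 95% interval 0.605-fold to 1.02-fold). It stayed negative under the 11 alternatives, from -0.52 to -0.18. With both BFP-positive libraries below both BFP-negative ones, leaving out 1 library could hardly change this sign. Irak2 (Entrez gene 108960, chromosome 6, 113638467 to 113695026), a relative known to sustain the late response, was at 33.7 and 32.0 CPM in BFP-negative and 43.0 and 36.4 CPM in BFP-positive cells. These were apart but did not pass (log2 fold change 0.27, SE 0.21, adjusted p = 0.483 in edgeR's test, 95% interval 0.875-fold to 1.67-fold).

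Irak3 (Entrez gene 73914, chromosome 10, 120141648 to 120202130), the brake of the family, had no count in either BFP-negative library and 23 and 13 counts in BFP-positive replicates 1 and 2. That is 1.97 and 1.07 CPM, where the upper limit for a count of 0, taken as 3 counts, came to 0.239 CPM on average in a BFP-negative library. Set against that floor per library, the BFP-positive mean of 1.52 ± 0.639 CPM (SD, n = 2) was 6.37-fold higher. The floor bounds the BFP-negative side only, and the lower BFP-positive library, at 1.07 CPM, gives a smaller ratio. Floors cover counting error only, since PCR copies are not independent molecules. The gene passed edgeR's test (adjusted p = 0.0310), but its fitted fold change rests on 0 counts and is no measured size. It entered the test only through the BFP-positive libraries, so a call could only be a rise and adds no support. The call was lost without either BFP-negative library or without BFP-positive replicate 2 (adjusted p = 0.114 to 0.144), and with no filter on low counts (adjusted p = 0.0639). Without BFP-positive replicate 1, Irak3 was too low to be tested. Irak3 shares 192 exon bases, 5.22% of its exon length, with the abundant gene Tmbim4 on the other strand, which was lower in BFP-positive cells (513.7 and 588 against 403 and 408 CPM, adjusted p = 0.0431 in edgeR's test). IRAK-M is best known from monocytes and macrophages. Of 10 tested monocyte and macrophage markers, 6 rose, 2 fell and 2 did not pass, beside 7.60% higher and 3.51% lower over all genes tested. Their summed level over all 12 was 652 and 786 CPM in BFP-negative and 1392 and 1541 CPM in BFP-positive cells. Ly6c2 was the largest part of this sum in each library, at 299 and 379 against 777 and 897 CPM, so the sum is no even gain. The 2 markers that fell were Adgre1 and Apoe, with log2 fold changes of -1.83 and -3.40. Csf1r, the receptor of the macrophage growth factor, was at 0.241 and 0 against 22.7 and 32.8 CPM, while Mertk and C1qa had no count in any library. Markers of conventional dendritic cells summed to 812 and 810.3 CPM in BFP-negative and 1033 and 1100.2 CPM in BFP-positive cells. Id2 was the largest part of this sum in each library, at 488 and 419 against 508.5 and 463 CPM, and did not pass. Of 10 tested, 3 rose and 7 did not pass, with a positive sign in 9 and a median log2 fold change of 0.81. Zbtb46 rose from 0.723 and 4.97 to 14.9 and 18.7 CPM. Itgax rose from 66.4 and 108 to 145 and 165 CPM, and Naaa from 94.5 and 104 to 173 and 227 CPM. The part of these marker sets in the differences of the 10 genes was not tested.

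**Figure D2:**
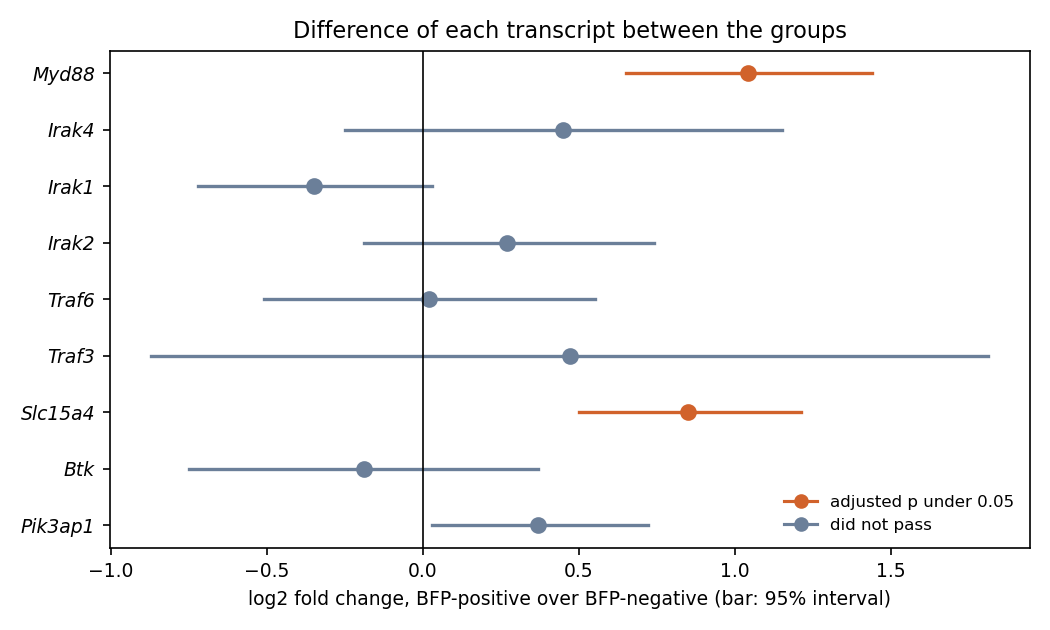
Log2 fold change of 9 transcripts, BFP-positive over BFP-negative (horizontal axis), with 95% intervals from edgeR's fit; Irak3 is left out because its fold has no measured size. The intervals of Myd88 and Slc15a4 lie wholly above 0 and passed the adjusted test, that of Pik3ap1 starts at 0.03 and did not, and that of Traf3 is the widest.

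Per gene length, IRAK1 was the main IRAK transcript in every library. On the RPKM scale (corrected for gene length and depth, from the authors' log2 values), Irak1 made up 65.6% and 73.0% of the summed Irak1 to Irak4 level in BFP-negative replicates 1 and 2. It made up 53.7% and 61.9% in BFP-positive replicates 1 and 2. The mean share was lower by 11.5 percentage points (69.3 ± 5.24% against 57.8 ± 5.79%, SD, n = 2), and the groups did not overlap. The share of Irak2 was 20.3 ± 1.57% and 26.2 ± 4.83%, and that of Irak4 10.4 ± 3.67% and 14.9 ± 0.434%, each higher in both BFP-positive libraries. The size of the shifts varied with single libraries. Without BFP-positive replicate 1 the Irak1 share was lower by 7.45 points and the Irak2 share higher by 2.46 points, in place of 5.87, and without BFP-positive replicate 2 the Irak2 share was higher by 9.29 points. The Irak4 share was higher by 4.58 points, by 1.98 without BFP-negative replicate 2 and by 7.17 without BFP-negative replicate 1. Irak3 reached 1.48% and 0.733% in BFP-positive cells. With 2 libraries against 2, an exact two-sided permutation test cannot go below p = 0.333, and each of the 4 shares gave this value, so none of these shifts can pass a threshold here. The summed level was 50.9 and 52.6 RPKM in BFP-negative and 44.6 and 48.6 RPKM in BFP-positive cells, lower in both of the latter.

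**Figure D3:**
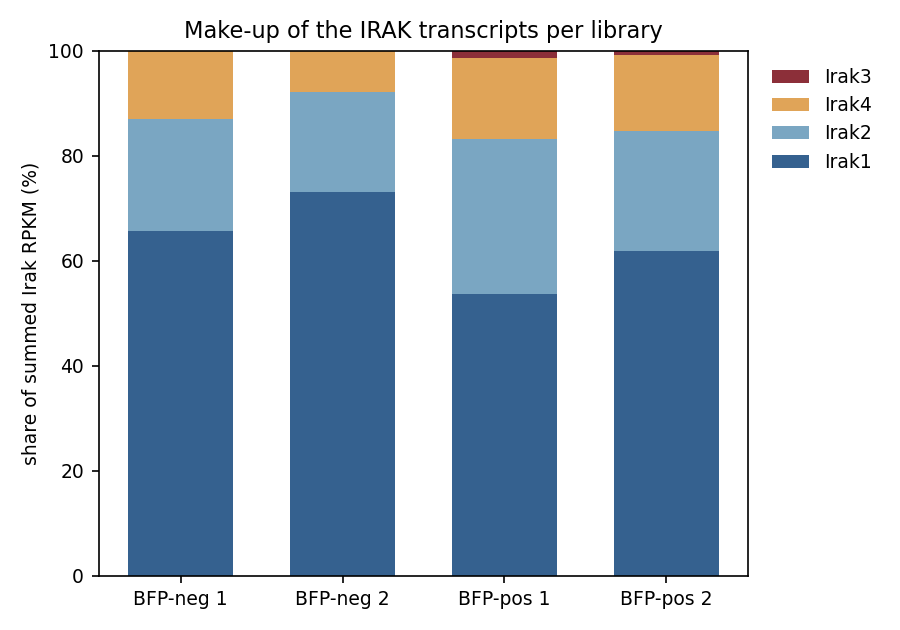
Share of each IRAK transcript in the summed Irak1 to Irak4 RPKM (vertical axis, percent) in each of the 4 libraries. The Irak1 segment is 65.6% and 73.0% in BFP-negative and 53.7% and 61.9% in BFP-positive libraries, and Irak3 is visible only in the latter.

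TRAF6, the ubiquitin ligase that the IRAK complex engages, had the fitted difference closest to 0. Traf6 (Entrez gene 22034, chromosome 2, 101678420 to 101701668) was at 25.2 and 25.9 CPM in BFP-negative and 28.15 and 23.9 CPM in BFP-positive cells, which enclose the BFP-negative values. Its log2 fold change was 0.02, SE 0.24, with a 95% interval of 0.705-fold to 1.47-fold. A change within these bounds was not excluded. Traf3 (Entrez gene 22031, chromosome 12, 111166321 to 111267155) was the least even of the 9 genes with a measured fold, at 12.9 and 2.84 CPM in BFP-negative and 8.32 and 13.4 CPM in BFP-positive cells. Its 160 and 36 counts in the BFP-negative pair set its difference. The log2 fold change was 0.47, SE 0.60 (adjusted p = 0.698 in edgeR's test), 1.94 without BFP-negative replicate 1 (adjusted p = 0.0340) and -0.22 without BFP-negative replicate 2 (adjusted p = 0.827). No direction can be given for Traf3 from these libraries.

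Slc15a4 (Entrez gene 100561, chromosome 5, 127594545 to 127633292), the endolysosomal transporter, was at 107 and 114 CPM in BFP-negative replicates 1 and 2. In BFP-positive replicates 1 and 2 it was at 174 and 226 CPM. The groups were apart, with the tight BFP-negative pair below both BFP-positive libraries. The means were 111 ± 5.35 and 199.96 ± 36.6 CPM (SD, n = 2), a 1.81-fold rise with a 95% interval of 1.41-fold to 2.32-fold (log2 fold change 0.85, SE 0.16, adjusted p = 0.00761 in edgeR's test). It passed under 10 of 11 alternatives, and the exception was without BFP-positive replicate 2 (0.66, adjusted p = 0.0668). In the GENCODE annotation 427 exon bases of Slc15a4, 8.04% of its exon length, lie opposite the predicted gene Gm43474. Its closest relative moved the other way. Slc15a3, a second endolysosomal peptide and histidine transporter, fell from 173 and 166 CPM to 91.6 and 109 CPM (log2 change -0.75, SE 0.15, adjusted p = 0.0104 in edgeR's test), a call lost without BFP-positive replicate 1 (adjusted p = 0.0841). The transcript 5430427O19Rik, the mouse gene of the SLC15A4 partner TASL, was at 75.3 and 44.4 CPM in BFP-negative and 84.5 and 75.1 CPM in BFP-positive cells. It did not pass (log2 fold change 0.41, SE 0.24, adjusted p = 0.329); it and TASL's effector Irf5 were named after their values were seen. Irf5 was at 259 and 242 against 183 and 223 CPM and did not pass (adjusted p = 0.227 in edgeR's test).

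**Figure D4:**
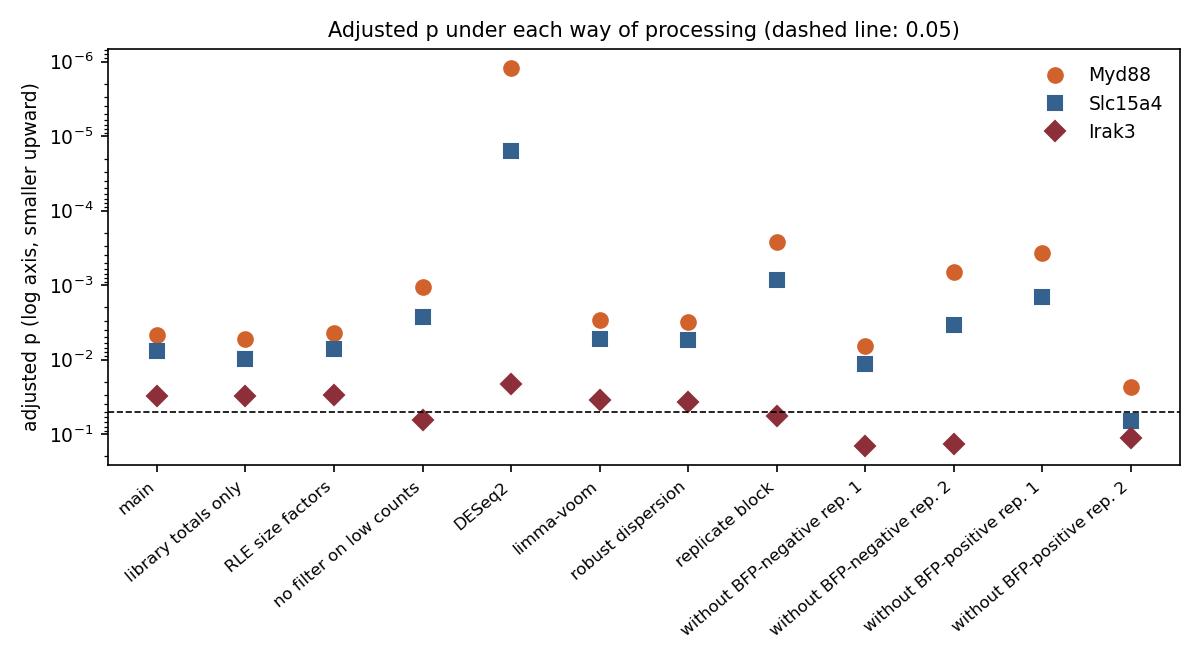
Adjusted p of the 3 called transcripts (vertical axis, log scale, smaller values upward) for the reported fit and for each alternative way of processing (horizontal axis), with the threshold of 0.05 dashed. Myd88 is past the threshold in all of them, Slc15a4 in all but 1 (0.0668 without BFP-positive replicate 2), and Irak3 falls short in 5 and is absent where it was too low to be tested.

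Btk (Entrez gene 12229, chromosome X, 134542334 to 134583628), a kinase of the Tec family, was at 37.2 and 26.6 CPM in BFP-negative and 25.3 and 30.6 CPM in BFP-positive cells. The groups overlapped (log2 fold change -0.19, SE 0.25, adjusted p = 0.711 in edgeR's test, 95% interval 0.596-fold to 1.29-fold). Pik3ap1 (Entrez gene 83490, chromosome 19, 41272541 to 41385102), which links receptors to PI3K, was at 105 and 118 CPM in BFP-negative and 133 and 156 CPM in BFP-positive cells. Both BFP-positive values were higher, and the 1.30-fold difference had an unadjusted p of 0.0361 but did not pass in edgeR's test (log2 fold change 0.37, SE 0.16, adjusted p = 0.166). Both genes are also expressed in B cells. Of 4 tested B-cell markers, Cd79a fell and 3 did not pass, beside 3.51% called lower over all genes tested. The summed level of all 6 markers was 117 and 115 CPM in BFP-negative and 96.3 and 101 CPM in BFP-positive cells. Cd79b alone was most of this sum, at 90.1 and 96.2 against 90.2 and 96.7 CPM, so the sum mainly follows that gene. Cd79a was at 15.2 and 13.6 against 2.23 and 1.73 CPM. The part of these markers in the values of Btk and Pik3ap1 was not tested.

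Per gene length the 10 transcripts spanned a wide range. In BFP-negative cells Pik3ap1 (43.5 ± 2.78 RPKM), Myd88 (43.5 ± 4.51 RPKM) and Slc15a4 (41.8 ± 1.25 RPKM) formed a top group whose neighbours overlapped. Irak1 followed at 35.9 ± 3.54 RPKM, then Btk at 12.9 ± 3.27 and Irak2 at 10.5 ± 0.567 RPKM, which overlapped. Irak4 at 5.35 ± 1.78 and Traf6 at 4.78 ± 0.00601 RPKM overlapped as well, and Traf3 was lower at 1.16 ± 1.06 RPKM. In BFP-positive cells Myd88 (85.6 ± 15.9 RPKM) and Slc15a4 (72.1 ± 12.7 RPKM) overlapped each other and both stood above Pik3ap1 (53.9 ± 5.78 RPKM). Below them came Irak1 at 27.0 ± 4.33, Irak2 at 12.1 ± 1.51, Btk at 10.8 ± 1.37, Irak4 at 6.96 ± 0.219, Traf6 at 4.65 ± 0.572 and Traf3 at 1.52 ± 0.494 RPKM, where Irak2 and Btk overlapped. Irak3 was last, at 0.508 ± 0.214 RPKM. On this scale the adaptor and the transporter were thus level with Pik3ap1 in BFP-negative cells and above it in BFP-positive cells. The order rests on 1 length per gene, 1905 bases for Myd88, 2706 for Slc15a4 and 2615 for Pik3ap1. It was not rerun with other lengths, which could change the places of these genes.

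Among 6146 named genes with at least 20 CPM in a group, those whose centred log2(CPM + 1) values over the 4 libraries lay closest to each called gene were found by Euclidean distance. For Myd88 these were Fam43a (distance 0.07) and Flt3 (0.08), the receptor of the growth factor used in the culture, at 109 and 126 CPM in BFP-negative and 205 and 258 CPM in BFP-positive cells. For Slc15a4 they were Il10ra (0.04), an interleukin-10 receptor chain, and Stk4 (0.04), a kinase of the Hippo family. For Irak3, whose low values are compressed on this scale, they were Cd244 (0.12), a SLAM-family receptor, and Anxa4 (0.16), an annexin. The likeness is a description over 4 libraries.

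Around the 10 genes, 6 lists of pathway partners held 101 symbols, of which 97 were tested. Of these, 16 rose, 4 fell and 77 did not pass in edgeR's test, with a median log2 fold change of 0.17. Over all genes tested, 7.60% were called higher and 3.51% lower, which is the background for each list below. No list was tested against these shares. The list with the largest share of rises was that of downstream transcription factors. Of its 13 members 6 rose and 7 did not pass (median 0.56). Jun, an AP-1 subunit, rose from 52.2 and 41.3 to 143 and 143 CPM, Irf1 from 95.1 and 103 to 185 and 188 CPM, and Relb, the non-canonical NF-κB subunit, from 116 and 136 to 199.97 and 262 CPM. Their log2 fold changes were 1.61, SE 0.17, 0.91, SE 0.14 and 0.87, SE 0.17, with adjusted p = 0.000300, 0.00266 and 0.00768 in edgeR's test. The call of Relb was lost without BFP-positive replicate 2 (adjusted p = 0.0583).

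Of 14 tested TRAF relatives and ubiquitin enzymes, 3 rose and 11 did not pass (median 0.22). Those that rose were the ligases Birc2 and Birc3, which act with TRAF2 and TRAF3 to degrade NIK, and Map3k14, which encodes NIK itself. Birc2 went from 38.1 and 38.6 to 84.3 and 77.5 CPM (log2 change 1.08, SE 0.18, adjusted p = 0.00366 in edgeR's test). Map3k14 went from 3.13 and 3.86 to 12.0 and 13.1 CPM (1.84, SE 0.41, adjusted p = 0.0177), and Birc3 from 73.0 and 82.7 to 114 and 138 CPM (0.69, SE 0.17, adjusted p = 0.0243). Without BFP-positive replicate 2 the calls of Map3k14 and Birc3 were lost (adjusted p = 0.0738 and 0.185), as was that of Birc3 without BFP-negative replicate 1 (adjusted p = 0.0714).

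Between TRAF6 and the nucleus, of 18 genes for TAK1, the IKK complex and MAP kinases, 2 rose and 16 did not pass (median 0.13). Mapk14, the kinase p38α, was at 57.0 and 82.7 against 103 and 149.8 CPM, and its substrate Mapkapk2 at 234 and 253 against 315 and 374 CPM. Their calls in edgeR's test (adjusted p = 0.0384 and 0.0394) were lost without BFP-negative replicate 1 (0.104 and 0.0960) and without BFP-positive replicate 2 (0.224 and 0.312), and Mapkapk2 also missed with library totals alone (0.0566). The third gene by p, Tab3, a TAK1-binding subunit, did not pass (adjusted p = 0.170).

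Upstream of MyD88, of 17 tested genes for endosomal receptors and their traffic, 2 fell and 15 did not pass, with a median of -0.24 and a positive sign in 4. Beside Slc15a3, Hsp90b1, the chaperone that folds Toll-like receptors, fell from 614 and 484 to 337 and 307 CPM (log2 change -0.77, SE 0.14, adjusted p = 0.00686 in edgeR's test). Hps6, a subunit of a lysosome-related organelle complex, was at 23.8 and 25.5 against 38.2 and 44.7 CPM and did not pass (adjusted p = 0.0535 in edgeR's test, 0.0362 in DESeq2). Tlr7 itself was at 99.96 and 78.4 CPM in BFP-negative and 61.4 and 59.8 CPM in BFP-positive cells, apart but not past the threshold (log2 fold change -0.56, SE 0.18, adjusted p = 0.0781 in edgeR's test). Without BFP-negative replicate 2 the adjusted p was 0.0388 in edgeR's test, and without BFP-negative replicate 1 the log2 change was -0.37 (adjusted p = 0.353). Without BFP-positive replicates 1 and 2 the adjusted p was 0.198 and 0.259 in edgeR's test. The receptor was thus lower in both of the libraries in which Myd88 and Slc15a4 were higher.

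Among brakes and other TIR adaptors, 2 of 14 rose, 1 fell and 11 did not pass (median 0.27). Tnip3, a partner of the deubiquitinase A20, rose from 4.34 and 10.6 to 92.0 and 58.1 CPM (log2 change 3.33, SE 0.39, adjusted p = 0.000464 in edgeR's test). Ptpn6, the phosphatase SHP-1, was at 1001 and 1123 against 1394 and 1514 CPM (0.45, SE 0.11, adjusted p = 0.0285), a call lost when BFP-negative replicate 1 or either BFP-positive library was left out (adjusted p = 0.0789, 0.0724 and 0.208). Irak1bp1, which encodes a binding partner of IRAK1, fell from 68.9 and 48.8 to 27.8 and 20.8 CPM (-1.27, SE 0.24, adjusted p = 0.00826).

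Of 21 tested partners of BTK and PI3K, 3 rose, 1 fell and 17 did not pass (median 0.23). Prkcb, the protein kinase C that acts below BTK in B cells, fell from 527 and 503 to 214 and 271 CPM (log2 change -1.08, SE 0.14, adjusted p = 0.000868 in edgeR's test). Inpp5d, the phosphatase SHIP1 that opposes PI3K, rose from 33.8 and 40.7 to 70.8 and 83.7 CPM (1.05, SE 0.19, adjusted p = 0.00689). Pik3r6, a regulatory subunit of PI3Kγ, rose from 7.31 and 7.57 to 18.7 and 22.6 CPM (1.47, SE 0.32, adjusted p = 0.0152, and 0.0770 without BFP-positive replicate 2). Pik3cb, the catalytic subunit p110β, was the other gene that rose, named after its values were seen, from 11.2 and 13.4 to 29.4 and 25.3 CPM (adjusted p = 0.0238 in edgeR's test). Over all lists, 8 partners were called higher without BFP-positive replicate 2.

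**Figure D5:**
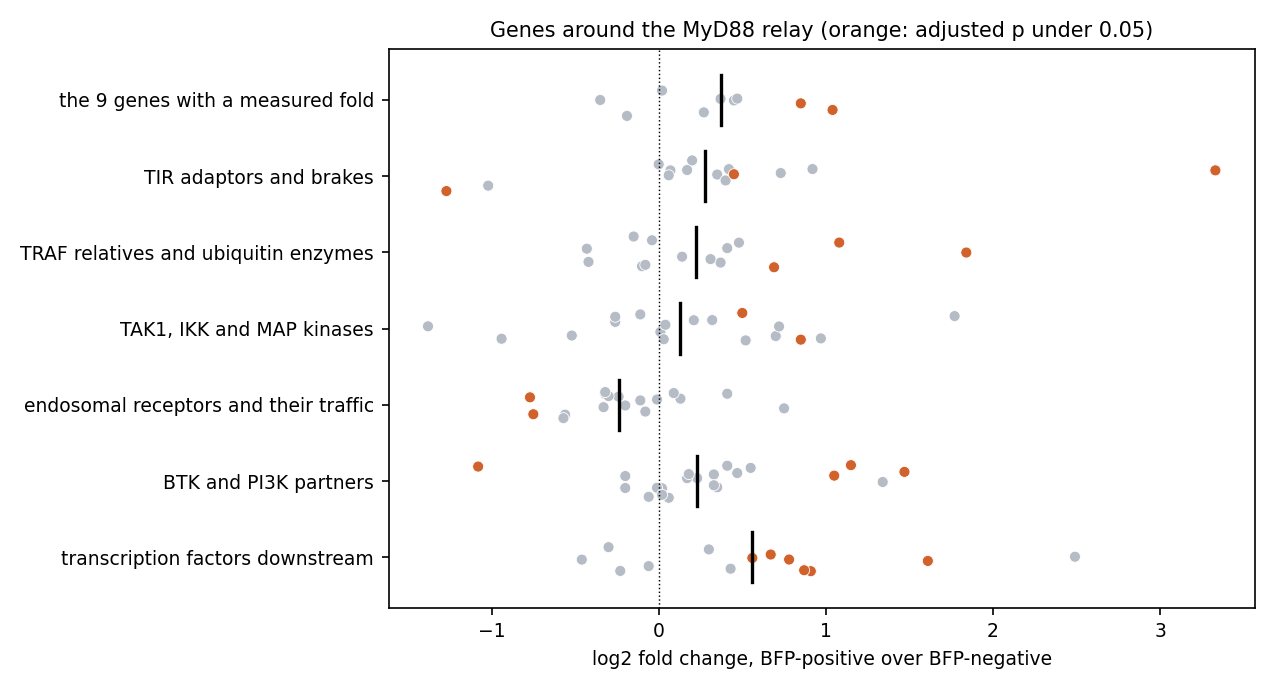
Log2 fold change, BFP-positive over BFP-negative (horizontal axis), of each tested gene of the 6 pathway lists and of the 9 transcripts with a measured fold, with black bars for the medians and orange points past the adjusted threshold. The endosomal list has its median at -0.24 and the downstream transcription factors at 0.56.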

How the data were processed

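The authors deposited raw counts per gene for the 4 libraries and, per library, log2 RPKM values. Subread, featureCounts and limma, and the builds GRCm38 and mm10, are listed in the submitters' processing notes; versions, strand and multi-mapping settings are not given in the sources used here. Libraries were made with a SMART-Seq kit, per the labels' protocols, which keeps neither strand nor molecular identifiers. The deposited log2 RPKM match the counts over a fixed gene length with a small count offset to within 0.01 for all 27179 genes. The lengths and the offset were fitted to these same values, so the match is no check of the lengths.

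Genes were kept by filterByExpr of edgeR 4.0.16 (minimum count 10, minimum total 15), leaving 11706, and scaled by TMM (factors 0.973 to 1.04). BFP-positive was compared with BFP-negative by the quasi-likelihood test on group alone (residual degrees of freedom: 2; R 4.3.3), two-sided, with Benjamini-Hochberg adjustment over all tested genes. The SE is the log2 fold change over the square root of F. The code was tested on simulated data. Alternatives were DESeq2 1.42.0, limma-voom 3.58.1, other scalings, no filter, robust dispersion, a replicate block and leaving out each library. Named were the 10 genes, Tlr7, Cxcl10, the 3 genes with the smallest p of each pathway list, and the 2 genes most like each called gene. The genes and lists were chosen with earlier results of these data known. Positions are from RefSeq, GRCm38.p6, and exon overlaps from GENCODE M21 on the same build. Some marker genes are not reported here and were left out of the marker lists.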

Additional observations from a re-analysis of the deposited data

How the results depend on the processing

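Leaving out 1 library gave 559 to 921 genes higher and 245 to 408 lower over the whole table (890 and 411 with all 4), 1 to 3 of the 10 genes higher (3), and 8 to 20 pathway partners higher (16) and 3 to 5 lower (4). The lowest counts of genes, of the 10 and of partners higher came without BFP-positive replicate 2, where Myd88 was the 1 call among the 10, and the lowest count of genes lower without BFP-positive replicate 1. Myd88 was called under all 11 alternatives. Which of the other genes among the 10 were called differed between these fits. The replicate numbers share a code in the titles whose meaning is not given, so whether the libraries are paired is not known. The reported fit used group alone. Same-numbered libraries deviated together with r = 0.0594 across genes. This r counts low and high genes alike and cannot exclude a pairing. The block gave more calls, and the SE of Myd88 was 0.12 with it in place of 0.18. With the replicate number as a block, 1140 genes were higher and 760 lower, 20 pathway partners were higher and 7 lower, Irak3 lost its call (adjusted p = 0.0565 in edgeR's test) and Tlr7 and Hps6 gained one (adjusted p = 0.0360 and 0.0310). Differences not called in the reported fit changed sign for Traf3, Traf6 and Btk. When 1 library was left out, they ranged from -0.22 to 1.94 for Traf3, -0.10 to 0.14 for Traf6 and -0.39 to 0.08 for Btk. With library totals only, Traf6 was at -0.04. The Irak1 share was lower by 7.45 to 15.6 percentage points when any library was left out. Likewise the share was higher by 2.46 to 9.29 points for Irak2, 0.721 to 1.46 for Irak3 and 1.98 to 7.17 for Irak4; since the groups do not overlap, no direction could change. With 0.5 RPKM added the shift of the Irak1 share was -11.2 points, and with GENCODE exon lengths, an alternative chosen after seeing the data, it was -11.5 points. The planned RefSeq lengths were not run, since that table gives whole genes with introns. At this depth the 23 and 13 counts of Irak3 were the fewest among the 10 genes.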
